A study of Mus musculus with 4 samples.

Results

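The small proline-rich (Sprr) genes encode precursors of the cornified envelope, and 10 of them are described here in mouse skin after topical treatment: Sprr1a, Sprr1b, Sprr2d, Sprr2e, Sprr2f, Sprr2g, Sprr2h, Sprr2i, Sprr3 and Sprr4. They were found by gene name among 56953 genes of a read count table, which holds 17 Sprr genes in all. The family was chosen on the difference between NEDD8i and DMSO in these same libraries, so the values of its members in that comparison are a description and carry no test. The dorsal skin of wild-type C57BL/6J mice received topical NEDD8i at 10 µM or the solvent DMSO, and was collected after 3 days. NEDD8i is known here only by that label, which refers to NEDD8, a ubiquitin-like protein that cells attach to cullins. There were 2 libraries per group, prepared by 3′ tag sequencing, in which reads come from 1 end of each polyadenylated transcript. The labels give neither the age nor the sex of the mice, and do not say whether the replicates came from separate mice, so spreads between replicates may be technical.

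Sprr proteins are made in the suprabasal keratinocytes of stratified epithelia, where transglutaminases cross-link them, through glutamines and lysines, to loricrin, involucrin and other proteins under the cell membrane. Most family members are scarce in resting epidermis between hair follicles, and several are known to be switched on in wounded, irritated or ultraviolet-exposed skin. Their genes lie side by side in the epidermal differentiation complex, a stretch of chromosome 3 in the mouse that also holds the genes of loricrin, involucrin, filaggrin and the late cornified envelope (Lce) proteins.

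Total counts were between 5639791 and 8856572 per library, of which 52.6% to 61.7% fell on 3 ribosomal RNA genes. Markers of basal, spinous and granular keratinocytes were all detected, with Krt5 and Krt10 among them, while 4 neutrophil markers had no count in any library, and the 4 endothelial markers together had 2 to 12 reads per library, with Cdh5 at 0 in all. DMSO replicate 1 stood apart by its hair follicle RNA: 15 detected hair shaft and inner root sheath markers summed to 7357 CPM there (reads scaled to library size), against 20.9 CPM in the other DMSO library and 16.0 and 438.3 CPM in the NEDD8i libraries. The summed CPM of 5 granular layer markers was 1020 and 965.2 in the DMSO libraries, and lower, at 298.3 and 453.8, in the NEDD8i libraries. Of these markers, Lor, Flg, Flg2 and Hrnr had lower mean CPM after NEDD8i. Ivl went the other way, with mean CPM of 146.6 in DMSO and 229.2 after NEDD8i. The summed CPM of 4 leucocyte markers, all detected, was 63.4 and 73.4 in DMSO and 97.1 and 107.2 in NEDD8i. The 5 spinous and 6 basal markers overlapped between the groups, at 3529 to 7425 CPM and 2994 to 5685 CPM, and so did those of fibroblasts, melanocytes and sebocytes. The 6 dermal fibroblast markers together had only 6.50 to 63.9 CPM, and 2 adipocyte markers had 0 to 4 reads per library. How much dermis the samples held was not tested. The part of these cell type markers in the Sprr values was not tested. In RNA of many cell types together, more RNA per cell and more cells of a type cannot be told apart.

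The promoters of the family are shown first, because the Sprr2 members share short sequences there. RefSeq promoter windows on GRCm38.p6, from 250 bases before to 50 bases after the annotated gene start, were matched by symbol for 9 of the 10 members, all except Sprr2g. Capitals mark 3 motifs searched on both strands, the AP-1 motif TGANTCA, the octamer ATTTGCAT and the TATA motif TATAAA. Sprr1a (chr3:92485832-92486131, minus strand) and Sprr1b (chr3:92438730-92439029, minus strand) are the most abundant members. Sprr2d (chr3:92338890-92339189, plus strand) and Sprr2h (chr3:92385435-92385734, plus strand) stand for the Sprr2 genes. Sprr3 (chr3:92458671-92458970, minus strand) is a member with almost no reads, and Sprr2k (chr3:92432332-92432631, plus strand) is a neighbouring Sprr2 gene outside the members, also with almost no reads.
Sprr1a: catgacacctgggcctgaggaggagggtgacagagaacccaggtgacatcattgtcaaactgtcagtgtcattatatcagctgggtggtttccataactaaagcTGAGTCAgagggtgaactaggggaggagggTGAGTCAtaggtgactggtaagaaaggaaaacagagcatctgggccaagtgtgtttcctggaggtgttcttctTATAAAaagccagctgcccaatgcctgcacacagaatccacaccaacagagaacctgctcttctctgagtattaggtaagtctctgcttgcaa
Sprr1b: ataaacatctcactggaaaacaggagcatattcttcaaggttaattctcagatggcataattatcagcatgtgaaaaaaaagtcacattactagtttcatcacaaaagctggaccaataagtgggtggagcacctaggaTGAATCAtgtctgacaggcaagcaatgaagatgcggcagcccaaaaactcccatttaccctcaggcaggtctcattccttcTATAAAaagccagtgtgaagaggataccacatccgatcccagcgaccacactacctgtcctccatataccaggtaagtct
Sprr2d: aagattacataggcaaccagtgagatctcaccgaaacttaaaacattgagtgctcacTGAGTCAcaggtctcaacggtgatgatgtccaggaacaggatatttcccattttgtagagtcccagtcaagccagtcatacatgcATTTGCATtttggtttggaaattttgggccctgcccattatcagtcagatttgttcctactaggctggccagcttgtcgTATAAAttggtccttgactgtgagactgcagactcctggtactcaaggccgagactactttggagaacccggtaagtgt
Sprr2h: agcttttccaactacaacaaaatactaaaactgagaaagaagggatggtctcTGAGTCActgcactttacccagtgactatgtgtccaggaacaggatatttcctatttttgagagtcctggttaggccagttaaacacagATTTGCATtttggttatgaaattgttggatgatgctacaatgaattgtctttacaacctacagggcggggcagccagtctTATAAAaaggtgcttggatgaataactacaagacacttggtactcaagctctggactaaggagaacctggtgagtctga
Sprr3: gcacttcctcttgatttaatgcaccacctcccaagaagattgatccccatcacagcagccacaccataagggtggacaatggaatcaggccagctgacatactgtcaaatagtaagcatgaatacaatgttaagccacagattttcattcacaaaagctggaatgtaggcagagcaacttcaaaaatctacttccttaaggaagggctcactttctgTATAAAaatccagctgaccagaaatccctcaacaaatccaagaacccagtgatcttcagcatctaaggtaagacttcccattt
Sprr2k: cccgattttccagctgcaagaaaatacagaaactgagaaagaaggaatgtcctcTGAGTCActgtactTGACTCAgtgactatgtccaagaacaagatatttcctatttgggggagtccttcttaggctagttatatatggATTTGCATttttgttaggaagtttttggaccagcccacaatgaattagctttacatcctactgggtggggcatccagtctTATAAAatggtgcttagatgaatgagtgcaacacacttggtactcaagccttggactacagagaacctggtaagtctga

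All 5 Sprr2 members with a promoter window held 1 AP-1 motif, 1 octamer and 1 TATA motif. Counted from the gene start, in Sprr2d the AP-1 motif began at -193, the octamer at -108 and the TATA motif at -29, and in Sprr2h they began at -198, -109 and -29. Sprr1a had 2 AP-1 motifs and Sprr1b had 1, with no octamer in either window, and Sprr3 had only the TATA motif of these 3. Sprr4, not shown, had none of the 3. Its annotated gene begins with ATG, so its window may lie away from the promoter. Of 32851 promoter windows of the same length, 7.81% held the AP-1 motif, 1.74% the octamer and 13.6% the TATA motif. Sprr2k and Sprr2b, which had 3 reads and no read over the 4 libraries, held the same 3 motifs as the Sprr2 members. The windows of Sprr2a1, Sprr2a2 and Sprr2a3 held none of the 3. In a similar stretch, the letters GGGTG began at 39 in Sprr2a1 and Sprr2a2 and at -47 in Sprr2b. Windows of the Sprr2a genes may thus lie away from the promoter, so a missing motif there is not read as a lack of it. Of 3 further motifs searched, the ETS motif GGAAGT was found in 1 of the 9 member windows (Sprr3; 23.8% of all windows), the antioxidant response core TGACNNNGC in 2 (Sprr1a and Sprr2f; 12.4% of all windows) and the KLF motif CACCC in 3 (Sprr1a, Sprr1b and Sprr3; 57.5% of all windows). In Sprr1a the AP-1 match at -146 overlapped the antioxidant response core, and the AP-1 match at -116 overlapped a KLF match. These matches describe letters, not bound sites.

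**Figure D1:**
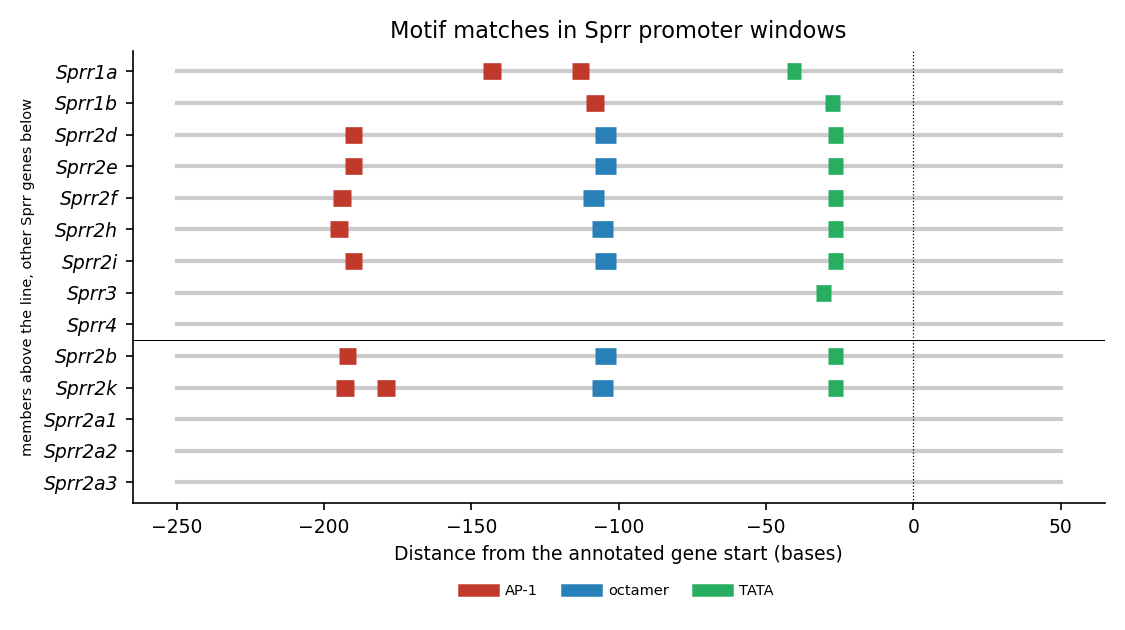
Positions of AP-1, octamer and TATA motif matches in the promoter windows of 9 Sprr members and 5 other Sprr genes, as distance in bases from the annotated gene start (dotted line). The 5 Sprr2 members and also Sprr2b and Sprr2k carry all 3 motifs at nearly the same distances. Sprr2a1, Sprr2a2, Sprr2a3 and Sprr4 carry none, and the annotated gene of Sprr4 begins with ATG. The windows of these genes may lie away from the promoter.

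Sprr transcripts resemble each other, which matters for how reads were assigned. In GENCODE M21 transcripts, identity between pairs of Sprr2 members ran from 64.2% to 80.5% over 15 pairs, and Sprr1a and Sprr1b were 66.7% identical. In the last 300 bases of each member's longest transcript, where 3′ tags fall, 0 of the 50-base stretches occurred in a transcript of any other gene. For Sprr4 the whole annotated transcript of 231 bases was used. By contrast, 100% of such stretches of Sprr2a1 and Sprr2a2 and 80.1% of those of Sprr2a3 occurred in other genes. The read length and the handling of reads with several matches are not given in the sources used here.

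Of the 10 members, 8 passed the filter on low counts and 2, Sprr3 and Sprr4, did not. In the fit over all 11388 tested genes, 7 of the 8 tested members had a Benjamini-Hochberg adjusted p under 0.05 (edgeR, quasi-likelihood), all higher after NEDD8i, and Sprr1b did not pass. Over all tested genes 0.667% were called higher and 0.782% were called in either direction. Since the same contrast chose the family, nothing is read from this count. All 8 tested members had both NEDD8i libraries above both DMSO libraries, an arrangement found in 25.0% of all tested genes. The median log2 fold change of the 8 was 5.22, or 4.97 with Sprr2i set at its lower bound, against -0.00322 over all tested genes. The 6 Sprr2 members passed the filter only through their NEDD8i libraries, so neither value is a measure of the whole family. Without NEDD8i replicate 1 the count was 6, with Sprr2e lost, and without NEDD8i replicate 2 it was again 6, with Sprr2i lost. Leaving out either DMSO library gave 8, Sprr1b being gained. With limma-voom only Sprr1a, Sprr2f and Sprr2h were called, and with DESeq2 all 8 were.

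**Figure D2:**
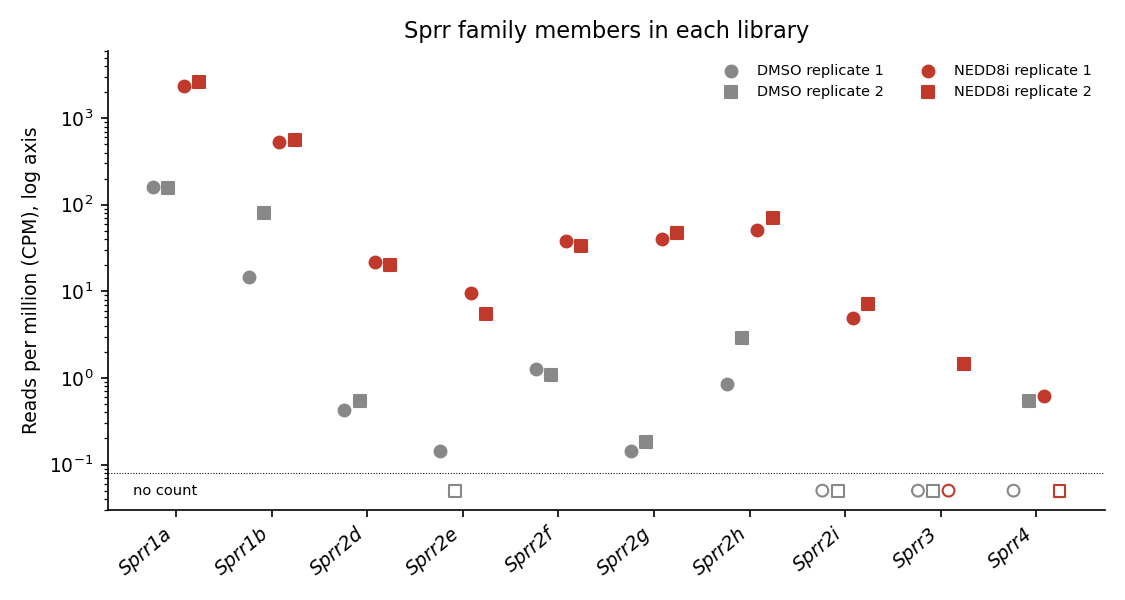
Reads scaled to library size (CPM, log axis) of the 10 Sprr members in each library, with DMSO in grey and NEDD8i in red, and open symbols under the dotted line for libraries without a count. NEDD8i libraries lie above DMSO libraries in the 8 tested members, with a gap that differs between members, while Sprr3 and Sprr4 are at or near no count.

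Sprr1a, an envelope precursor that is also known as a marker of injured peripheral neurons, carried most of the family's reads. In the deposited table it lies on chromosome 3 from 92391259 to 92393202, minus strand (coordinates taken to be GRCm39). DMSO replicates 1 and 2 gave 1117 and 871 reads, and NEDD8i replicates 1 and 2 gave 19060 and 21960. Both DMSO libraries were nearly equal after scaling, and both NEDD8i libraries lay far above them. Mean levels were 158.1 ± 1.35 CPM in DMSO and 2493 ± 191 CPM after NEDD8i (SD, n = 2 libraries each), a ratio of means of 15.8 and a log2 fold change of 3.98 (SE 0.36).

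Sprr1b, the closely related second Sprr1 gene (chromosome 3, 92344116 to 92346096, minus strand), was uneven among the controls. Its counts were 102 and 443 in DMSO and 4306 and 4626 after NEDD8i, or 14.5 and 79.9 CPM against 532.8 and 553.7 CPM. DMSO replicate 1, the library rich in hair RNA, was the low one, and the groups did not overlap. The log2 fold change was 3.53 (SE 0.81), which became 2.75 without DMSO replicate 1 and 5.24 without DMSO replicate 2. For every 100 Sprr1a reads there were 9.13 Sprr1b reads in the first DMSO library, 50.9 in the second, and 22.6 and 21.1 in the treated libraries. The NEDD8i libraries thus fell between the DMSO libraries in this ratio, which does not depend on library scaling.

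The 6 Sprr2 members, short envelope precursors encoded on the plus strand between 92246447 and 92316578 of chromosome 3, were close to absent in DMSO. DMSO replicates 1 and 2 gave 20 and 26 reads for all 6 together, and NEDD8i replicates gave 1346 and 1530. Their summed level was 3.77 ± 1.30 CPM in DMSO and 174.8 ± 11.7 CPM after NEDD8i (SD, n = 2 each), a ratio of means of 46.4. The same ratio was 14.8 for the 2 Sprr1 genes together. For every 100 Sprr1a reads there were 1.79 and 2.99 Sprr2 reads in DMSO and 7.06 and 6.97 after NEDD8i, so both NEDD8i libraries were above both DMSO libraries also relative to Sprr1a. Whether the Sprr2 and Sprr1 ratios differ was not tested.

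Sprr2h and Sprr2f were the Sprr2 members with the most reads in DMSO. Sprr2h (chromosome 3, 92292992 to 92294631) had 6 and 16 reads in DMSO and 415 and 581 after NEDD8i, which is 1.87 ± 1.44 CPM and 60.4 ± 12.9 CPM (SD, n = 2 each). Its log2 fold change was 5.05 (SE 0.53), with values of 4.37 without DMSO replicate 1 and 6.14 without DMSO replicate 2. Sprr2f, in the mouse also known as an oestrogen-responsive gene of the uterus (92272494 to 92273749), had 9 and 6 reads in DMSO and 312 and 277 after NEDD8i. It had a log2 fold change of 4.90 (SE 0.40), and its replicates lay close together in both groups.

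Sprr2d (92246447 to 92248180), which is known to rise in mouse epidermis when the antioxidant factor Nrf2 is activated, had 3 reads in either DMSO library, and 175 and 168 in the treated libraries. The log2 fold change was 5.40 (SE 0.48). Sprr2g (92281222 to 92282536) is annotated as a polymorphic pseudogene in GENCODE M21 and as a transcribed pseudogene in RefSeq, so its reads need not stand for a protein. It had 1 read in either DMSO library and 327 and 399 reads in the treated ones, which gives a ratio of 277.5 (95% counting interval 76.5 to 2295). Within the Sprr2 reads its share was 24.3% and 26.1% in NEDD8i replicates 1 and 2, with exact 95% intervals of 22.0 to 26.7 and 23.9 to 28.4. In DMSO the share was 5% and 3.85%, with intervals of 0.127 to 24.9 and 0.0973 to 19.6, so that the interval of DMSO replicate 1 reached those of the treated libraries.

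Sprr2e and Sprr2i were the scarcest tested members. Sprr2e (92259450 to 92260756) had 1 and 0 reads in DMSO and 77 and 46 in the treated libraries, for a ratio of 94.0 (counting interval 16.6 to 3743). Its 1 control read came from DMSO replicate 1, the library rich in hair RNA. Sprr2i (92315298 to 92316578) had no read in either DMSO library and 40 and 59 after NEDD8i, and was at least 25.2-fold higher if the DMSO libraries together are given 3 counts, the floor. Sprr2e, Sprr2i and also Sprr2g had DMSO totals under that floor, and these counting intervals and floors cover counting error only.

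Sprr3 and Sprr4 had few or no reads in each library. Sprr3 (92363809 to 92366027, minus strand), known mainly from the lining of the mouth and oesophagus, had 0, 0 and 0 reads in DMSO replicates 1 and 2 and NEDD8i replicate 1, and 12 reads in NEDD8i replicate 2. All of its reads thus came from 1 library, and no fold is given. Sprr4 (92407570 to 92407800, minus strand), whose human counterpart is known to rise in skin after ultraviolet light, had 0 and 3 reads in DMSO and 5 and 0 after NEDD8i. Its ratio was 1.27 (counting interval 0.248 to 8.20), and the groups overlapped. The annotated Sprr4 gene is 231 bases long and begins with ATG, so reads of its transcript outside that stretch would not be counted. Whether depth or annotation limits its count was not tested. A library without a read of these genes allows a level of up to 0.359 to 0.541 CPM, the value of 3 counts. For Sprr4 this limit covers the annotated stretch only.

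Levels between members are given per kilobase of summed exon length and as CPM, because tags from 1 end of a transcript need not scale with its length. After NEDD8i the mean CPM per kilobase was highest for Sprr1a at 3094 and next for Sprr1b at 654.5. The Sprr2 members followed, with Sprr2h at 80.4, Sprr2g at 67.8, Sprr2f at 58.9, Sprr2d at 30.7, Sprr2e at 11.6 and Sprr2i at 9.73 CPM per kilobase. The order of these 8 was the same on CPM without the length. Per kilobase, replicate values of Sprr2h and Sprr2g overlapped, as did those of Sprr2g and Sprr2f. On CPM they did not, with Sprr2h at 51.3 and 69.5, Sprr2g at 40.5 and 47.8 and Sprr2f at 38.6 and 33.2, so whether these neighbours in the order differ depends on the scale. Replicate values of Sprr2e and Sprr2i overlapped on both scales. In DMSO the order began with Sprr1a at 196.2, Sprr1b at 56.9, Sprr2h at 2.49 and Sprr2f at 1.94 CPM per kilobase, and every other member had 6 or fewer DMSO reads.

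Summed over the 10 members, the family had 1239 and 1343 reads in DMSO and 24717 and 28128 after NEDD8i. Of the reads outside ribosomal RNA, this was 0.0439% and 0.0587% in the control libraries and 0.676% and 0.832% in the treated ones. The summed level was 209.4 ± 46.6 CPM in DMSO and 3212 ± 218 CPM after NEDD8i (SD, n = 2 each), a ratio of 15.3 and a log2 ratio of 3.94. That log2 ratio was 3.72 without DMSO replicate 1, the library rich in hair RNA, and 4.21 without DMSO replicate 2. The part of hair RNA in it was not tested. Sprr1a made up 90.2% of the family's reads in DMSO replicate 1 (exact 95% interval 88.4 to 91.8), 64.9% in DMSO replicate 2 (62.2 to 67.4), and 77.1% and 78.1% in NEDD8i replicates 1 and 2. The Sprr2 members made up 1.61% (0.989 to 2.48) and 1.94% (1.27 to 2.82) in DMSO, and 5.45% (5.17 to 5.74) and 5.44% (5.18 to 5.71) after NEDD8i. These Sprr2 shares were higher in both treated libraries. The intervals cover counting error only, and those of Sprr1a lay apart even between the DMSO libraries, so they do not measure the spread between replicates.

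**Figure D3:**
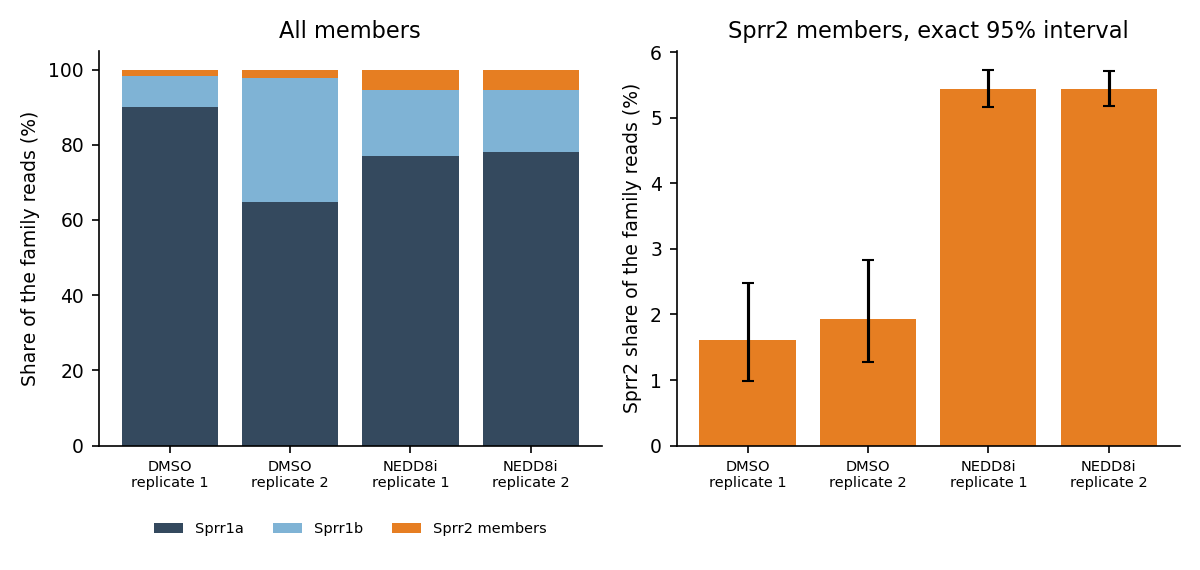
Left, share of the reads of the 10 Sprr members that came from Sprr1a, Sprr1b and the 6 Sprr2 members in each library; Sprr3 and Sprr4, with at most 12 reads, are not drawn. Right, the Sprr2 share alone with its exact 95% binomial interval, between 1.61% and 1.94% in DMSO and at 5.45% and 5.44% after NEDD8i.

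The spread between replicates differed among members. On CPM without a prior count, Sprr1b in DMSO was the widest of the members with reads in both libraries, at 2.46 on the log2 scale, followed by Sprr2h in DMSO at 1.76. In NEDD8i no tested member differed between replicates by more than the 0.79 of Sprr2e.

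The 7 other Sprr genes of the table added few reads. Sprr2a1, Sprr2a2, Sprr2b and the pseudogene Sprr2c-ps had no read in any library, and Sprr2k had 0, 0, 1 and 2. Sprr2a3 had 0 and 5 reads in DMSO and 9 and 24 after NEDD8i, and the pseudogene Sprr2j-ps had 0 and 0 against 6 and 11. For the Sprr2a genes, whose ends are shared with other genes, these counts may be incomplete.

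Around the family, within 1 Mb on either side, the complex held 77 other genes, of which 32 were tested. Of these, 4 were called higher, 2 lower and 26 did not pass. Over all tested genes, 0.667% were called higher and 0.782% in either direction. At an unadjusted p under 0.05 in edgeR, 5 of the 32 were higher (15.6%) and 13 lower (40.6%), against 8.62% and 7.87% of all tested genes. The median log2 fold change of the 32 was -1.86, against -0.00322 over all tested genes. Without DMSO replicate 1, the library rich in hair RNA, the median was -0.74 over the 31 of them still tested. Adrm1b, which lies inside the family between Sprr2j-ps and Sprr2k, had 12 and 15 reads in DMSO and 19 and 35 after NEDD8i, with a log2 fold change of 0.58 (SE 0.61) that did not pass. Just beyond Sprr4, the uncharacterised gene 2310046K23Rik rose (log2 fold change 2.14, SE 0.30, edgeR adjusted p = 0.0178), while Ivl, the gene of involucrin, stood at 0.64 (SE 0.32) and did not pass. The names Adrm1b, 2310046K23Rik and Ivl, and below Lce3e, Lce6a and the Lce1 genes, were picked once the values were known. Farther along, 3 genes of the Lce3 group rose: Lce3d (4.91, SE 0.76, edgeR adjusted p = 0.0276), Lce3c (3.74, SE 0.45, edgeR adjusted p = 0.0128) and Lce3f (3.69, SE 0.62, edgeR adjusted p = 0.0377). Lce3e stood at 3.95 (SE 0.92) and did not pass. The other tested Lce genes, those of the Lce1 group and Lce6a, all had negative log2 fold changes, and none passed. Those of the Lce1 group ran from -0.52 for Lce1f to -4.42 for Lce1m, which had 600 and 47 reads in DMSO. The neighbours called lower were Flg2 (-3.69, SE 0.44, edgeR adjusted p = 0.0128) and Lor (-3.05, SE 0.51, edgeR adjusted p = 0.0377), the latter on the other side of the family. These counts depended on single libraries. The median log2 fold change of the 32 was -1.96 without DMSO replicate 2, and -1.66 and -2.17 without NEDD8i replicates 1 and 2. Without DMSO replicate 1 the log2 fold change of Lor was -2.04, and the remaining DMSO library had no Lce3d read. Without DMSO replicate 2 it was 4.34 for Lce3c, 4.30 for Lce3f and 4.09 for Lce3d, and without NEDD8i replicate 2 it was 2.83 for Lce3f. Lor, Lce3d and 2310046K23Rik no longer passed without either NEDD8i library, and Lce3f without NEDD8i replicate 2. With library sizes without TMM, Lor, Lce3d and Lce3f did not pass, and with limma-voom Lor, Lce3c, Lce3d and Lce3f did not pass.

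**Figure D4:**
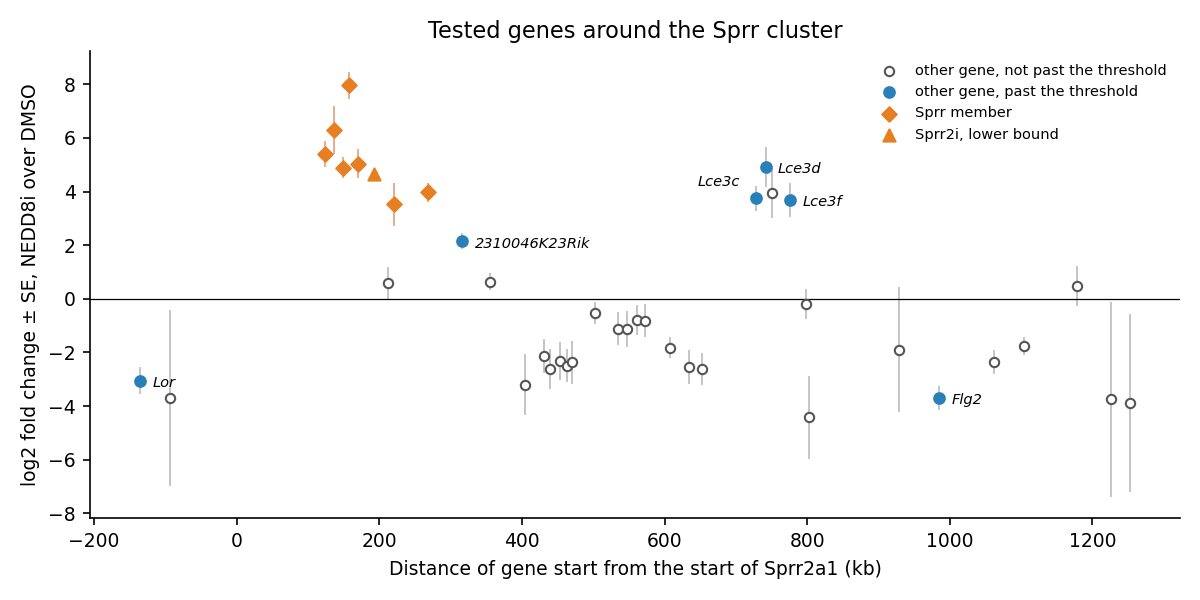
Log2 fold change of NEDD8i over DMSO, with its standard error, for tested genes of the window by distance of their start from the start of Sprr2a1 in kilobases. Sprr members (orange, with Sprr2i as a lower bound and Sprr2e and Sprr2g resting on 1 and 2 DMSO reads) and the labelled Lce3 genes lie above 0, whereas 24 of the 32 other tested genes lie below it, with a median of all 32 at -1.86.

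A list of envelope partners was drawn up from proteins of the envelope and of differentiating keratinocytes. Contact with Sprr proteins is not taken as known for each of them. Of the 26 tested genes of the list, 0 rose, 2 fell (Lor and Flg2) and 24 did not pass in edgeR. Their median log2 fold change was -0.26, or -0.13 without DMSO replicate 1. At an unadjusted p under 0.05, 1 was higher and 6 were lower, against 8.62% and 7.87% of all tested genes. DESeq2 called 1 higher and 5 lower, against 237 and 177 of all 11388 tested genes. With limma-voom 0 were higher and 1 lower, against 25 and 2 of all tested genes. Lor, the gene of loricrin, the main envelope protein of normal epidermis, had 2377 and 613 reads in DMSO and 199 and 247 after NEDD8i. Flg2, the gene of filaggrin 2, had 1123 and 502 against 53 and 107 reads. Both are part of the granular layer marker sum that was lower after NEDD8i, so that sum is no separate observation. The median log2 fold change of the 26 partners was -0.034 without DMSO replicate 2, and -0.19 and -0.25 without NEDD8i replicates 1 and 2. Of the transglutaminases that cross-link Sprr proteins, 3 were tested and 0 passed in edgeR, DESeq2 or limma-voom, while 2 were lower at an unadjusted p under 0.05. Their median log2 fold change was -1.36, or 0.0046 without DMSO replicate 1. Tgm3 stood at -1.36 (SE 0.59) and Tgm1 at 0.21 (SE 0.41) on the log2 scale. The median of the 3 was -1.11 without DMSO replicate 2, and -1.21 and -1.07 without NEDD8i replicates 1 and 2.

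Transcription factors known to act at SPRR promoters, mostly from work on human cells, were also examined. Of 21 tested, 2 rose, 0 fell and 19 did not pass in edgeR, with a median log2 fold change of 0.16. At an unadjusted p under 0.05, 5 were higher and 0 lower, against 8.62% and 7.87% of all tested genes. DESeq2 called 3 higher and 0 lower, against 237 and 177 of all 11388 tested genes. With limma-voom 2 were higher and 0 lower, against 25 and 2 of all tested genes. Ehf, an ETS factor of epithelial cells, had 105 and 126 reads in DMSO and 799 and 1218 in the treated libraries (2.70 on the log2 scale, SE 0.35, edgeR adjusted p = 0.0162). Fosl1, the AP-1 subunit Fra-1, had 57 and 27 against 335 and 338 reads (2.64, SE 0.36, edgeR adjusted p = 0.0162), and missed the threshold with library sizes without TMM (adjusted p = 0.0515). The other AP-1 genes Fos, Fosb, Fosl2, Jun, Junb and Jund had log2 fold changes between -0.52 and 0.16, and none passed. Pou2f3, an octamer-binding factor of the epidermis, stood at -0.58 (SE 0.37), and Nfe2l2, the gene of Nrf2, at 0.28 (SE 0.29). The other genes higher at an unadjusted p under 0.05 were Grhl3 (1.66, SE 0.36), Ets1 (1.48, SE 0.36) and Stat3 (0.97, SE 0.30). None of these passed after adjustment. The names other than Ehf and Fosl1 were picked once the values were known. The list median was 0.13 and 0.36 without DMSO replicates 1 and 2, and 0.30 and 0.028 without NEDD8i replicates 1 and 2.

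**Figure D5:**
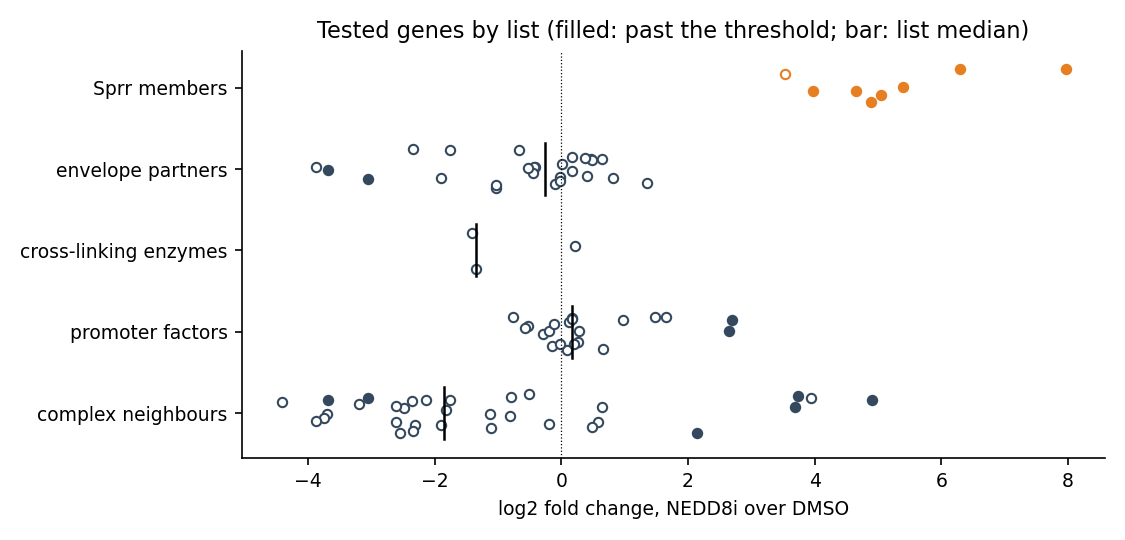
Log2 fold change of NEDD8i over DMSO for the 8 tested Sprr members and for the tested genes of 4 lists, with filled points past the threshold and a bar at each list's median. The Sprr members, with Sprr2i at its lower bound, lie to the right of nearly all genes of the lists, apart from Lce3 genes among the neighbours.

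The genes whose profile over the 4 libraries was most like that of the summed family were found by the root mean square difference of centred log2 CPM, over 10584 candidate genes. The closest was Sh2d5, which encodes an SH2 domain protein, at 0.16, with 4 and 5 reads in DMSO and 131 and 110 after NEDD8i. It was followed by the alarmin gene Il33 at 0.23, Lce3c at 0.25, the serpin gene Serpinb2 at 0.27 and the potassium channel gene Kcnn4 at 0.27. Il33 had 64 and 92 reads in DMSO and 1816 and 1449 after NEDD8i, and Serpinb2 had 216 and 268 against 3909 and 3420. Kcnn4 had 0 and 2 against 44 and 52, a log2 fold change of 5.03 (SE 0.92), and did not pass (edgeR adjusted p = 0.0519). The candidates, unlike the family sum, carried the prior count of 2, which shrinks differences in genes with few reads. The likeness uses the same contrast that chose the family and only 4 libraries, so it describes these libraries alone.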

How the data were processed

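RNA of dorsal skin was measured in 4 libraries, 2 per group, with a QuantSeq 3′ FWD kit per the labels' protocols; the extraction text there speaks of cells, while the treatment text speaks of full-thickness skin. The authors deposited raw read counts per gene in the layout of featureCounts, per the file headers. STAR, featureCounts and DESeq2, and the builds GRCm38 and GRCm39, are named in the submitters' processing notes; versions, strand setting and read length are not given in the sources used here. Starts of all 10 members differed from GENCODE M21 (GRCm38) by 92693 bases, so the table's coordinates are taken to be GRCm39. Of the sample columns, 0 were left unused.

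Groups came from the sample titles. edgeR 4.0.16 in R 4.3.3 was run on the counts with TMM factors, filterByExpr (minimum count 10, minimum total 15; 11388 genes kept), the robust quasi-likelihood F test on the group alone and Benjamini-Hochberg adjustment over all tested genes. The SE is the log2 fold change over the square root of F. CPM uses TMM-scaled library sizes, and log2 CPM a prior count of 2. The biological coefficient of variation was 34.6%. No library repeated another (chi-square over degrees of freedom 24.1 to 68.5 for pairs). DESeq2 1.42.0 and limma 3.58.1 gave alternatives. The steps were tested on simulated data. Transcripts and promoters were compared with Biopython 1.88. No reads were collapsed by molecular identifier as far as stated, so exact intervals, at 95%, and the floor of 3 counts cover counting error only.

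The members, lists and alternatives were chosen with earlier results of these data known. Named were all members, other Sprr genes with at least 10 reads, up to 4 passing genes of each list by size of change (or the 2 most abundant where none passed) and the 5 genes most like the family; predicted gene models were left out of the last.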

Additional observations from a re-analysis of the deposited data

How the results depend on the processing

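Direction held for the 8 tested members under all 12 alternatives, with log2 fold changes from 2.75 to 5.24 for Sprr1b and from 3.76 to 4.07 for Sprr1a. The family was chosen on this contrast, and all 8 had both NEDD8i libraries above both DMSO libraries. The direction could thus hardly have changed, and nothing is read from its holding. Library sizes without TMM moved the median log2 fold change of all genes to -0.22. Of the members, 3 were called with limma-voom, against 7. Over all genes the count of 89 became 414 with DESeq2, 27 with limma-voom, 47 with library sizes without TMM, 703 with no filter and 289 with the replicate number as a block (replicate block), and ran from 44 to 1358 when 1 library was left out. Envelope partners called, 2, became 6, 1, 1 and 5 in the first 4 of these and ran from 1 to 11 with 1 library left out. Neighbours called, 6, became 16, 2, 3, 19 and, with the replicate block, 10 (Lor not among them, adjusted p = 0.0819), and ran from 2 to 25. Promoter factors called, 2, became 1 with library sizes without TMM and 4 with no filter, and ran from 2 to 6. Of the cross-linking enzymes, 0 became 1 with no filter and ran to 3. The summed log2 ratio of the family ran from 3.72 to 4.21 with 1 library left out. In such a fit 1 group has a single library, assumed to vary like the other group. Same-numbered libraries deviated with a correlation of -0.13, so they are not taken as pairs; a crossed block, added after seeing the data, called 493 genes, 8 members, 5 envelope partners and 21 neighbours. The causes were not tested. Sprr3, Sprr2e, Sprr2g and Sprr2i had 3 or fewer DMSO reads each, and whether depth limits these counts was not tested. Sprr4 had 3 DMSO reads on an annotation of 231 bases.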
